A study of Mus musculus with 9 samples.

Results

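Colonic mucosa of mice without a functional gastrin gene was compared with that of wild-type mice, and the comparison was read across 11273 genes. It used 6 of the 9 arrays of the series, chosen by their titles: 3 titled Gas KO, of genotype Gas-/-, and 3 titled WT. Every animal was a male of C57BL/6 background aged 6 weeks, kept free of specific pathogens, and the labels name no treatment and no second allele in either group. The other 3 arrays, of mice labelled hGas Transgenic with the same background, sex and age, helped to estimate the spread between arrays, and their levels are given beside the leading genes. The labels do not say how the gastrin allele was inactivated, which promoter drives the transgene, whether the groups were littermates, or whether the 3 arrays of a group came from different animals. The p-values therefore rest on the spread among these arrays, which may be technical. The mucosa was lifted off the muscle by injecting saline beneath it, and RNA extracted with Trizol was amplified to biotin-labelled cRNA and hybridised to Affymetrix arrays of 45101 probe sets. Every value below is a log2 intensity after GCRMA, a method that corrects background by probe sequence and normalises arrays to each other, and each gene is represented by its brightest probe set.

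Gastrin is the peptide hormone by which G cells of the stomach drive acid secretion, through the receptor encoded by Cckbr. It is cut from a longer precursor, progastrin, and progastrin and its partly processed forms have been studied as growth signals for the colonic epithelium. The series title refers to proliferation that depends on progastrin. The colonic mucosa is a sheet of crypts in which stem and dividing cells near the base give rise to absorptive colonocytes, mucus-secreting goblet cells and hormone-producing enteroendocrine cells. Below the epithelium, the lamina propria holds fibroblasts, macrophages and many plasma cells, which secrete the IgA that is carried into the lumen. In a piece of whole mucosa, fewer cells of a type and less RNA per cell cannot be told apart.

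Array medians lay between 4.13 and 4.16, and values below log2 4 are called near background here. The Gas KO arrays lay between 25.8 and 30.1 on the first principal component, which held 53.9% of the variance, and the other 6 arrays between -19.2 and -8.38. On the second component, with 18.1%, WT replicate 3 lay farthest out at 24.95. RNA quality shows in control probe sets at the 3' end of a transcript against those at its 5' end, a difference that for Gapdh was -0.176 to -0.138 in WT and -0.117 to -0.088 in Gas KO, so the groups did not overlap. For actin it was 0.763 to 0.888 and 0.872 to 0.938, which do overlap. The part of RNA quality in the results was not tested. Gast itself was near background on every array, at 1.96, 1.97 and 1.93 in WT and 2.14, 2.11 and 1.99 in Gas KO. This probe set therefore checks neither genotype. Genes entered the tests when at least 3 of the 9 arrays reached log2 4, which Gast and Cckbr did not. Of 9 tested genes of gastrin signalling and peptide hormone processing 1 rose, Furin, a protease that cuts prohormones (log2 change 0.38, adjusted p = 0.0351), and it kept its call without WT replicate 3, hGas replicate 2 or hGas replicate 3 but not without any of the others.

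Loss of gastrin went with changes in 1366 of the 11273 genes (12.1%) at an adjusted p under 0.05 by limma, with 748 higher in Gas KO (6.64%) and 618 lower (5.48%). Most changes were small. The median absolute log2 change of the called genes was 0.49, and 244 of them (2.16% of genes tested) changed at least 2-fold, 139 upward and 105 downward. Among genes at log2 8 or above in both groups, 322 rose and 287 fell, but only 32 of those 609 changed at least 2-fold. Of the 244 genes with 2-fold changes, 48 had a mean near background in one group, so that their fold depends on the background level. Leaving out 1 array at a time, 735 of the 1366 called genes (53.8%) and 223 of the 244 kept their call in all 9 fits. Without Gas KO replicate 1 the count of called genes was 888.

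The largest rise was that of Lpo, which encodes lactoperoxidase, an enzyme of secretions that oxidises thiocyanate with hydrogen peroxide to an antimicrobial product. By replicate, Lpo read 6.06, 5.89 and 4.78 in WT and 12.87, 12.97 and 12.96 in Gas KO (log2 change 7.36, SE 0.27, adjusted p = 2.34e-07). The Gas KO arrays lay close together, whereas WT replicate 3 lay more than 1 below the other WT arrays. St6galnac1, a sialyltransferase that caps mucin sugars, read 2.89, 2.92 and 2.78 in WT and 9.19, 8.87 and 9.25 in Gas KO, that is near background in every WT array and well expressed in every Gas KO array. Averaged with a second probe set that was below the filter, its change was 3.20. Cap1, which recycles actin monomers, read 6.54, 6.80 and 6.80 in WT and 11.74, 11.72 and 11.82 in Gas KO (log2 change 5.05, SE 0.08, adjusted p = 7.18e-10), and its second probe set gave 5.22. Gdpd3, a lysophospholipase D of the glycerophosphodiesterase family, read 4.71, 4.81 and 4.81 in WT and 9.21, 9.27 and 9.60 in Gas KO. Hddc3, a phosphohydrolase of the HD domain family, read 4.55, 4.75 and 4.73 in WT and 8.31, 8.38 and 8.34 in Gas KO. For Gdpd3 and Hddc3 the differences were 4.58 and 3.67, many times the spread within either group.

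Hsd17b13, an enzyme of lipid droplets, read 4.41, 4.08 and 2.87 in WT and 9.06, 9.12 and 9.07 in Gas KO, with WT replicate 3 again lowest. Serpina3n, a secreted serine protease inhibitor, read 6.45, 6.07 and 6.03 in WT and 8.92, 8.98 and 8.93 in Gas KO (log2 change 2.76, SE 0.11, adjusted p = 5.31e-07), a 6.77-fold difference between groups that were each tight. The related alpha-1-antitrypsin gene Serpina1b read 2.29, 2.29 and 2.27 in WT and 6.46, 5.97 and 5.15 in Gas KO, so it was near background in WT. Apoc2, the apolipoprotein that activates lipoprotein lipase, had a mean of 5.95 ± 0.39 in WT and 8.99 ± 0.20 in Gas KO (SD, n = 3), an 8.18-fold difference. Slpi, an antiprotease and antimicrobial protein of mucosal secretions, read 8.17, 8.46 and 7.96 in WT and 10.59, 10.38 and 10.31 in Gas KO (log2 change 2.24, SE 0.12, adjusted p = 3.44e-06). Steap4, a metalloreductase, read 6.18, 6.23 and 5.97 in WT and 8.23, 8.30 and 8.64 in Gas KO. None of these groups overlapped, which the rule for naming the largest changes required. Over all genes tested, 16.1% were higher in every Gas KO array than in any WT array. Qpct, which forms the pyroglutamate at the start of many peptide hormones, gastrin among them, read 6.33, 6.51 and 6.29 in WT and 8.50, 8.79 and 8.67 in Gas KO (log2 change 2.28, SE 0.10, adjusted p = 6.94e-07).

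Krt12, the keratin of the corneal epithelium, rose from near background, with 2.34, 2.37 and 2.32 in WT and 6.59, 5.36 and 6.25 in Gas KO. Abhd1, an alpha/beta hydrolase, read 5.40, 5.29 and 5.39 in WT and 8.36, 8.84 and 8.30 in Gas KO, an 8.81-fold difference. Igsf23, an immunoglobulin superfamily protein, read 6.33, 6.43 and 6.41 in WT and 9.31, 9.54 and 9.32 in Gas KO, and its 3 probe sets gave changes of 2.88 to 3.21. H2-Bl, a class I gene of the histocompatibility complex, read 4.77, 4.43 and 4.82 in WT and 7.06, 6.91 and 7.39 in Gas KO. Tpbg, the trophoblast glycoprotein, read 4.02, 3.79 and 3.80 in WT and 6.002, 6.06 and 5.88 in Gas KO. Adat2, a tRNA adenosine deaminase, rose by 2.10. All of these groups were separated by more than their own range, in genes picked because their arrays did not overlap.

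Among genes bright in both groups, where the background matters least, rises were smaller. Glo1, glyoxalase 1, which detoxifies methylglyoxal, read 10.79, 10.62 and 10.72 in WT and 11.998, 12.04 and 12.04 in Gas KO (log2 change 1.31, SE 0.06, adjusted p = 6.36e-07), and all its 4 probe sets rose, by 0.84 to 1.31. Alad, the second enzyme of haem synthesis, read 9.01, 9.01 and 9.21 in WT and 10.31, 10.52 and 10.40 in Gas KO, and its 2 probe sets gave 1.33 and 1.25. Rida, which clears reactive enamines, read 8.08, 8.02 and 8.09 in WT and 9.33, 9.46 and 9.27 in Gas KO. Gnb1, a G protein beta subunit, read 10.25, 10.24 and 10.25 in WT and 11.44, 11.41 and 11.43 in Gas KO, but its second probe set gave 0.35. Igfbp3, a binding protein for insulin-like growth factors, rose by 1.08, and Fgl2, a fibrinogen-like protein of macrophages and T cells, by 0.98, though a second probe set of Fgl2, equally bright in WT, gave 0.21 and was not called.

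The largest fall was that of Zan, which encodes zonadhesin, a sperm protein that binds the egg coat. Zan read 7.64, 7.27 and 7.84 in WT and 1.83, 1.89 and 1.86 in Gas KO (log2 change -5.72, SE 0.13, adjusted p = 6.39e-09), so it was near background in every Gas KO array. Zfp945, a zinc finger gene, read 7.26, 7.45 and 7.32 in WT and 2.51, 2.69 and 2.52 in Gas KO, but another tested probe set rose by 1.46, and the average over all its probe sets, 1 below the filter included, was -1.03. Galc, the lysosomal galactosylceramidase, read 5.84, 5.75 and 6.09 in WT and 2.37, 2.40 and 2.45 in Gas KO and was near background in Gas KO. Tnfsf13os, an antisense transcript at the Tnfsf13 locus, read 6.87, 6.87 and 6.90 in WT and 2.55, 2.59 and 2.61 in Gas KO. Mid1, a microtubule-binding ubiquitin ligase, read 7.56, 7.93 and 7.31 in WT and 4.59, 4.79 and 4.59 in Gas KO.

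Several large falls were those of genes well expressed in WT. Aadac, an esterase of the endoplasmic reticulum, read 9.70, 9.34 and 9.22 in WT and 5.54, 5.81 and 5.16 in Gas KO (log2 change -3.92, SE 0.19, adjusted p = 1.25e-06). Hsd3b3, a 3-beta-hydroxysteroid dehydrogenase, read 9.36, 9.33 and 8.67 in WT and 6.09, 6.42 and 5.66 in Gas KO, and its paralogue Hsd3b2 read 5.99, 5.48 and 5.52 in WT and 2.58, 2.59 and 2.41 in Gas KO. Because these paralogues are close in sequence, their probe sets may share signal. Akr1c19, an aldo-keto reductase, read 10.61, 10.48 and 10.54 in WT and 8.53, 8.36 and 8.78 in Gas KO (log2 change -1.99, SE 0.10, adjusted p = 1.59e-06). Ces2a, a carboxylesterase, fell by 1.43 from a bright level, with 10.91, 11.27 and 11.46 in WT and 9.71, 9.87 and 9.77 in Gas KO. In each of these genes the highest Gas KO array lay below the lowest WT array by more than 1.

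Ccn3, a matricellular protein, read 11.07, 10.98 and 10.36 in WT and 8.45, 8.75 and 8.30 in Gas KO, a 4.95-fold difference that its second probe set repeated at -2.39. Tc2n, whose product carries tandem membrane-binding domains, read 8.37, 8.28 and 8.21 in WT and 5.99, 5.48 and 5.76 in Gas KO, and its 4 probe sets gave changes of -3.09 to -1.35. S100g, the intestinal calcium-binding protein calbindin-D9k, read 7.24, 7.17 and 8.02 in WT and 5.27, 4.89 and 5.38 in Gas KO. Slc7a9, the light chain of the cystine transporter, read 5.47, 5.95 and 5.63 in WT and 3.02, 3.79 and 3.26 in Gas KO. Acpp, prostatic acid phosphatase, read 9.16, 8.68 and 9.36 in WT and 7.08, 6.29 and 6.66 in Gas KO. Tnnt2, cardiac troponin T, read 7.16, 7.67 and 8.35 in WT and 5.12, 4.95 and 5.26 in Gas KO. Wfdc17, a whey acidic protein of myeloid cells, read 7.02, 7.16 and 6.96 in WT and 4.59, 3.66 and 4.81 in Gas KO. Again no Gas KO array reached the lowest WT array in any of them.

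Bright genes that fell included Noct, the rhythmically expressed nocturnin, at 10.32, 10.49 and 10.06 in WT and 8.49, 8.62 and 8.65 in Gas KO. Tns4, a tensin of focal adhesions, read 10.15, 10.41 and 10.28 in WT and 8.82, 8.71 and 8.36 in Gas KO, and its second probe set gave -0.58. Ceacam20, a cell adhesion protein of microvilli, read 10.78, 10.92 and 10.69 in WT and 9.16, 9.21 and 9.34 in Gas KO. Ern2, the stress sensor IRE1 beta of goblet cells, read 9.42, 9.61 and 9.41 in WT and 7.88, 8.17 and 8.13 in Gas KO (log2 change -1.42, SE 0.08, adjusted p = 5.07e-06). Efhd2, a calcium-binding regulator of actin, fell by 1.81, although its second probe set gave -0.35. Ptprf, a receptor tyrosine phosphatase of epithelia, read 11.63, 11.66 and 11.71 in WT and 10.50, 10.74 and 10.72 in Gas KO (log2 change -1.01, SE 0.07, adjusted p = 2.38e-05), and its other 2 probe sets gave -1.41 and, at a similar brightness, -0.23, the last not called.

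**Figure D1:**
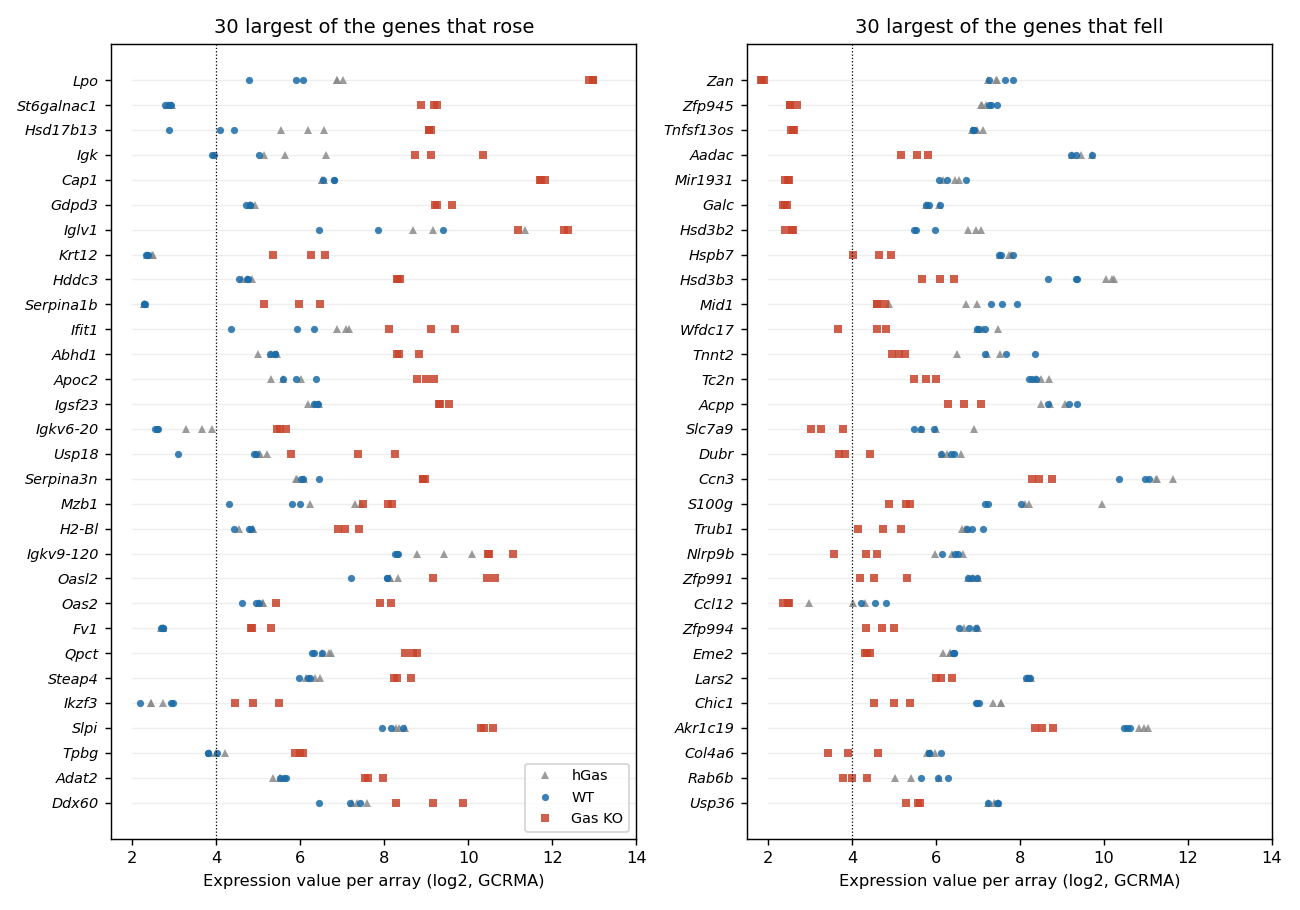
Values of the 30 named genes with the largest rises (left) and the 30 with the largest falls (right) among genes whose Gas KO and WT arrays did not overlap. Each point is 1 array on the log2 GCRMA scale, marked by group, hGas included; the dotted line is log2 4, below which values are near background. In Gas KO, Lpo stands near 12.9 on all 3 arrays and Zan near 1.86.

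How far a single probe set can be trusted differed by gene. Of the 1366 called genes, 610 had at least 2 tested probe sets. In 182 of the 610 all of them were called in the same direction, in 504 all changed with the same sign, and in 20 at least 1 was called in the opposite direction. Zfp991, a zinc finger gene, is of the last kind: it fell by 2.19 on the probe set used and rose by 2.11 on another. Among the 201 called genes named here, 80 had another tested probe set, and in 27 at least 1 of these was not called: Bmp5, Cd55, Cftr, Cxcl12, Ddx21, Fgl2, Fscn1, Fut2, H2-D1, H2-K1, Herc6, Hsd17b11, Hspb7, Hspe1, Igf1, Igk, Ly6e, Mrpl3, Mt1, Pdgfra, Psmb8, Ptprf, Scd1, Socs3, Tlr3, Vamp3 and Zbp1. In 15 others only 1 probe set was tested and averaging in those below the filter made the change more than 1.5 times smaller, to 1.83 for Hddc3, 2.65 for Hsd17b13, -2.14 for Tnfsf13os and -0.93 for Acpp, and likewise for St6galnac1, Ahr, Capg, Erbb3, Fbln2, Lgr5, Ltbp1, Rps6, Slc38a6, St6galnac2 and Utp18. Of the 244 genes with 2-fold changes, 170 had only 1 tested probe set and so no such check.

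Genes were then read by the 82 lists of pathways, families and cell types, each set beside the shares of all genes tested given above (6.64% rose, 5.48% fell, median log2 change 0.0067). The share of tested members called ranged over the lists from 0% to 71.4%, against 12.1% of all genes tested. A gene with fewer than 3 WT and hGas arrays at log2 4 passed the filter only through the Gas KO arrays, a choice that favours a higher level there. There were 65 such genes, of which 40 rose, and the counts of rises and the medians below include them, unless stated, where a list held any: Cr2 among B cell and complement genes, H2-Oa in class II presentation, Irf4 among plasma cell genes, St6galnac1 in mucin glycosylation, Krt12 among keratins and brush border genes, Serpina1b among serpins and complement genes, Tnfrsf13c in the TNF superfamily and Ptpn22 among phosphatases, beside those named with their lists. Lists of interferon response, antigen presentation, B and plasma cells and complement had many members that rose, and ribosome biogenesis had many that fell. Because the lists were chosen with earlier results of these data known, their counts are a description and not independent support.

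**Figure D2:**
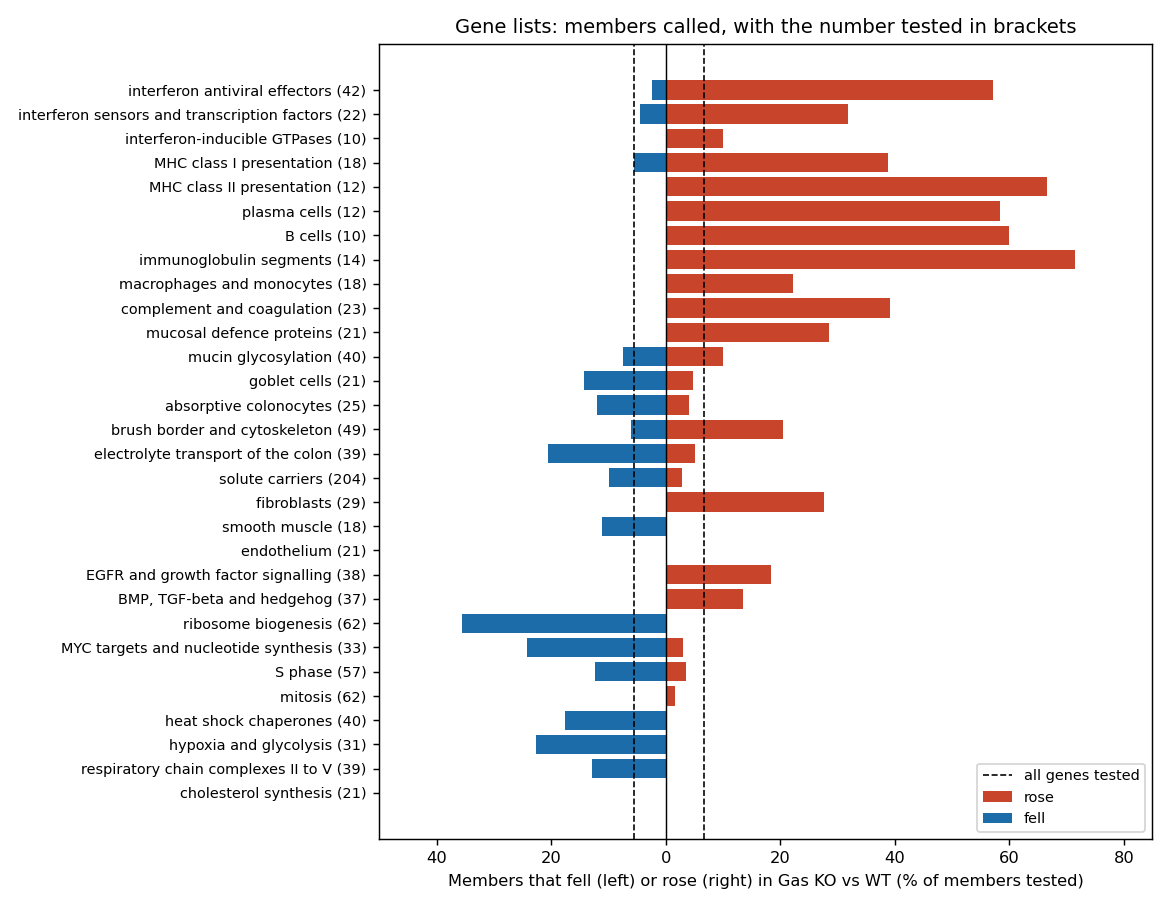
Share of the tested members of each list that rose (right, red) or fell (left, blue) in Gas KO against WT, in percent of members tested, with the number tested in brackets. Dashed lines mark the shares over all genes tested, 6.64% and 5.48%. Immunoglobulin segments, with 10 of 14 members higher, reach farthest to the right and ribosome biogenesis, with 22 of 62 lower, reaches farthest to the left.

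Interferons switch on a set of antiviral genes, many of which carry the interferon-stimulated response element in their promoters. Of 42 tested antiviral effectors, 24 rose, against 6.64% of all genes, and 1 fell, and the median change was 0.74. Ifit1, which binds foreign RNA ends, read 6.32, 5.93 and 4.36 in WT and 9.69, 8.11 and 9.12 in Gas KO (log2 change 3.44, SE 0.50, adjusted p = 0.00186). Oasl2, a relative of the oligoadenylate synthetases, read 8.08, 8.08 and 7.21 in WT and 10.65, 9.16 and 10.46 in Gas KO (log2 change 2.30, SE 0.36, adjusted p = 0.00298). Ly6e, a membrane protein that restricts virus entry, had the smallest p of the list, at 13.005, 12.96 and 12.95 in WT and 13.63, 13.43 and 13.58 in Gas KO (log2 change 0.57, SE 0.06, adjusted p = 3.58e-04). Ifi27 read 9.57, 9.50 and 9.46 in WT and 10.06, 9.83 and 10.01 in Gas KO. Ifi27l2b, of the same family, read 9.71, 9.71 and 9.40 in WT and 11.26, 10.39 and 10.96 in Gas KO. Usp18, which removes ISG15 from proteins, read 4.95, 4.91 and 3.08 in WT and 8.26, 5.79 and 7.37 in Gas KO (log2 change 2.82, SE 0.62, adjusted p = 0.0167). Ddx60, a helicase, rose by 2.09. The member that fell was Isg20, an exonuclease (named after its values were seen, log2 change -0.48, adjusted p = 0.0359).

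The promoters of the interferon response genes are shown because these genes moved together. The core of the element was searched as GAAANNGAA on both strands, in windows from 250 bases before to 50 after the start of each gene in RefSeq (assembly GRCm38.p6). Of the 11754 windows of 9125 tested genes, 6.9% held it, against 15 of the 39 windows of the antiviral effectors (38.5%) and 7 of the 19 windows of those that rose (36.8%). Windows of all genes that rose held it in 8.7% and of all genes that fell in 6.7%. In the stretches below, read on the gene's own strand, capitals mark the matches.
Ifit1 (chr19:34640750-34640843, plus strand): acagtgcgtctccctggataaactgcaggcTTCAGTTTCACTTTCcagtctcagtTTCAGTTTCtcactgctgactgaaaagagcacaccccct
Ifit3 (chr19:34583344-34583465, plus strand): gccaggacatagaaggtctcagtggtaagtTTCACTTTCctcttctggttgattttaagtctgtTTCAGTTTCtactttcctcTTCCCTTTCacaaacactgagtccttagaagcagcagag
Oas1a (chr5:120907501-120907575, minus strand): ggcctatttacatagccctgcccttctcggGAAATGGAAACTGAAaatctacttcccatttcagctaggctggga
Ifit1 and Ifit3 each held 3 matches and Oas1a 2 that overlap. Ifit3 read 6.62, 6.08 and 5.81 in WT and 8.05, 6.73 and 7.62 in Gas KO (log2 change 1.29, SE 0.32, adjusted p = 0.0269). Oas1a read 10.05, 9.99 and 9.91 in WT and 11.26, 10.49 and 11.06 in Gas KO (log2 change 0.95, SE 0.16, adjusted p = 0.00436). A match is a description of the letters and not evidence of binding.

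Sensors and transcription factors of the interferon system followed with 7 rises and 1 fall among 22 tested members, at a median of 0.304. Irf7, the factor that amplifies type I interferon, read 7.14, 7.55 and 7.03 in WT and 9.39, 8.16 and 8.93 in Gas KO (log2 change 1.59, SE 0.26, adjusted p = 0.00381). The RNA helicase Dhx58 read 5.24, 4.94 and 4.79 in WT and 7.35, 6.01 and 6.91 in Gas KO. Zbp1, a sensor of Z-form nucleic acids, read 6.49, 6.69 and 6.27 in WT and 8.37, 7.11 and 8.21 in Gas KO. Tlr3, the receptor for double-stranded RNA, rose by 0.35 and Ifih1, the sensor MDA5, by 0.48. The interferon-inducible GTPases had a median of 0.633 over 10 members, but only Irgm1 was called (log2 change 0.63, adjusted p = 0.038). Without Gas KO replicate 2, 3 of the GTPases rose, and leaving out any of the other 8 arrays left 0 called by limma.

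The Gas KO arrays were unequal in this response. Among the 24 antiviral effectors that rose, Gas KO replicate 2 was the lowest Gas KO array in 23, yet above all WT arrays in 23, and WT replicate 3 was the lowest WT array in 19. Measured from the WT mean, the median rise of these 24 was 1.53 in Gas KO replicate 1, 0.545 in replicate 2 and 1.231 in replicate 3. Being called higher already favours arrays above WT. Over all 42 tested members the mean level, relative to each gene's mean over the 9 arrays, was 0.874, 0.027 and 0.613 in Gas KO. It was -0.195, -0.267 and -0.524 in WT. The called members numbered 25 of 42 with all arrays, 13 without Gas KO replicate 3, 16 without WT replicate 2 and 32 without Gas KO replicate 2. For the sensors and factors the 8 called members became 2 without Gas KO replicate 1, 3 rises and 1 fall without Gas KO replicate 3, 4 without WT replicate 2 or WT replicate 3, and 5 without WT replicate 1 or hGas replicate 3.

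**Figure D3:**
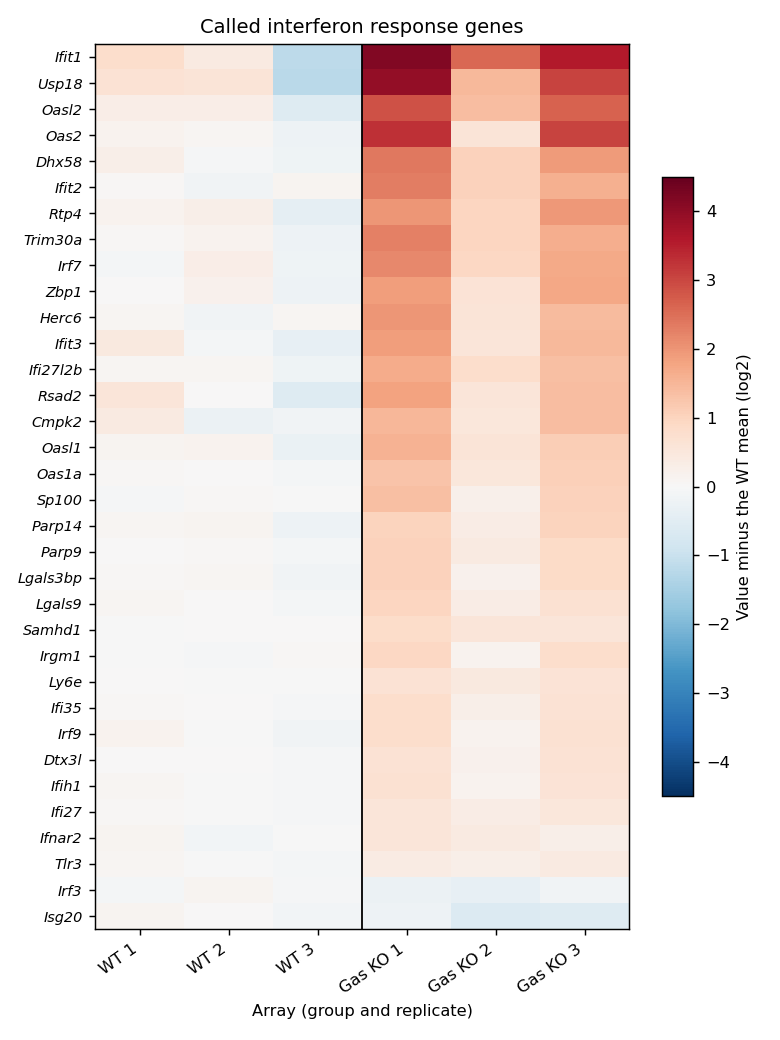
Heat map of the called interferon response genes, 1 gene per row and 1 array per column for WT replicates 1 to 3 and Gas KO replicates 1 to 3; colour gives the log2 value minus the gene's WT mean. In most rows Gas KO replicate 2 is paler than Gas KO replicates 1 and 3, and above the WT arrays.

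Genes of MHC class I presentation, which shows peptides from inside the cell to CD8 T cells, rose in 7 of 18 tested members and fell in 1, with a median of 0.258. Psmb9, a subunit of the immunoproteasome, read 7.48, 7.34 and 7.56 in WT and 8.40, 7.95 and 8.18 in Gas KO. Psmb8, another subunit, read 8.27, 8.35 and 8.16 in WT and 9.35, 8.77 and 9.21 in Gas KO. The classical heavy chains moved less: H2-D1 rose by 0.26 and H2-K1 by 0.26, from levels above 12. H2-M3, a nonclassical class I gene for formylated peptides, fell (log2 change -0.69, SE 0.11, adjusted p = 0.00367). The rises numbered 4 without Gas KO replicate 1 or 3.

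MHC class II presentation, the display of extracellular peptides by B cells, macrophages and dendritic cells, had 8 rises among 12 tested members, no fall and a median of 0.724. Cd74, the invariant chain, read 11.38, 11.42 and 11.30 in WT and 12.05, 11.95 and 12.01 in Gas KO (log2 change 0.63, SE 0.05, adjusted p = 2.00e-05). H2-Ab1, a class II beta chain, read 10.04, 10.12 and 10.01 in WT and 10.83, 10.74 and 10.80 in Gas KO, and its 3 probe sets gave changes of 0.74 to 0.79. H2-Eb1 read 9.82, 9.88 and 9.79 in WT and 10.66, 10.57 and 10.61 in Gas KO. H2-Aa, the partner chain of H2-Ab1, read 11.37, 11.41 and 11.18 in WT and 12.16, 11.95 and 11.99 in Gas KO. H2-Oa, whose product restrains peptide loading in B cells, rose from near background, with 3.16, 2.36 and 3.16 in WT and 5.26, 5.03 and 4.41 in Gas KO. Each of the 8 was higher in every Gas KO array than in any WT array. So were 1819 of all 11273 genes tested (16.1%), and being called already favours such separation. Between 8 and 9 members rose when any 1 array was left out. Ciita, the master regulator of class II genes, was below the filter on the brightest of its probe sets. Another rose by 1.22, from a mean of 3.07 in WT to 4.29 in Gas KO (limma adjusted p = 0.000404 over all probe sets tested). With its WT mean near background, that probe set may have passed the filter only through Gas KO, so its rise is no independent support.

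Plasma cell genes rose in 7 of 12 tested members with no fall, at a median of 1.248. Without Irf4, which passed the filter only through Gas KO, 6 of 11 rose and the median was 0.955. Jchain, which joins IgA dimers, read 11.72, 11.72 and 10.60 in WT and 13.02, 13.09 and 12.86 in Gas KO (log2 change 1.64, SE 0.28, adjusted p = 0.00414). Mzb1, a chaperone for immunoglobulin assembly, read 5.99, 5.81 and 4.30 in WT and 8.19, 8.08 and 7.50 in Gas KO. Irf4, the transcription factor of plasma cells, rose from near background, with 3.44, 3.43 and 3.41 in WT and 5.66, 5.11 and 5.01 in Gas KO. Tnfrsf13b, the receptor TACI, read 4.07, 3.67 and 4.04 in WT and 5.46, 5.71 and 5.25 in Gas KO. Derl3, of the degradation machinery of the endoplasmic reticulum, rose by 0.87. Igha, the heavy chain of IgA, was bright in both groups, at 13.79, 13.90 and 13.17 in WT and 14.64, 14.61 and 14.48 in Gas KO (log2 change 0.95, adjusted p = 0.00717). The other 5 tested members were not called, among them Sdc1, which changed by -0.03, Txndc5, by -0.05, and Ighm, described below. WT replicate 3 was the lowest WT array in 6 of the 7 genes that rose.

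Immunoglobulin segments rose in 10 of 14 tested members, with a median of 2.03, or in 8 of 12 with a median of 1.84 without Ighg3 and Igkv6-20, which passed the filter only through Gas KO. The light chain probe set Igk read 5.01, 3.94 and 3.90 in WT and 9.10, 10.36 and 8.74 in Gas KO, while a second Igk probe set gave 0.58. Iglv1 read 9.40, 7.84 and 6.45 in WT and 12.37, 12.28 and 11.19 in Gas KO, with a spread of almost 3 within WT (log2 change 4.05, SE 0.81, adjusted p = 0.0102). Igkv8-30, bright in both groups, read 12.64, 12.97 and 12.28 in WT and 14.10, 13.96 and 13.87 in Gas KO. Segments of the same family are close in sequence, and probe sets can share signal among them. The mean level of the list, relative to each gene's mean over the 9 arrays, ran from -1.65 to -0.625 in WT and from 0.914 to 1.344 in Gas KO. Ighm, the heavy chain of IgM, differed by 1.99 on the probe set used and was not called (log2 change 1.99, adjusted p = 0.178), but its 8 tested probe sets gave 0.99 to 4.43, and 3 of the 8 were called higher.

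B cell genes rose in 6 of 10 tested members at a median of 0.991, with none lower. Cd37, a tetraspanin of B cells, read 4.70, 4.42 and 4.72 in WT and 6.18, 5.56 and 5.60 in Gas KO (log2 change 1.17, SE 0.16, adjusted p = 0.00147). Spib, a transcription factor, read 5.38, 5.04 and 4.99 in WT and 6.51, 6.005 and 5.95 in Gas KO. Bank1, a scaffold of B cell receptor signalling, read 5.51, 4.86 and 5.37 in WT and 6.53, 6.03 and 6.15 in Gas KO. Ms4a1, which encodes CD20, read 6.18, 5.64 and 5.52 in WT and 7.46, 6.63 and 6.65 in Gas KO. Cd79a, a chain of the B cell receptor, read 6.08, 5.66 and 5.72 in WT and 7.52, 6.71 and 6.72 in Gas KO. Gas KO replicate 1 was the highest array in all 5. The list's mean level was -0.117 to 0.342 in WT and 0.633 to 1.31 in Gas KO, with Pax5 and Blk below the filter. Single arrays decided part of the count, since 3 members rose without WT replicate 2, WT replicate 3 or Gas KO replicate 1, and 4 without Gas KO replicate 3. Cxcl13, the chemokine that draws B cells into lymphoid follicles, read 7.15, 7.19 and 7.15 in WT and 8.85, 8.64 and 8.68 in Gas KO (log2 change 1.56, SE 0.08, adjusted p = 2.02e-06). Lymphoid follicles lie within the mucosa of the mouse colon, and the part in this result of how many each piece held was not tested.

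Other immune cell lists gave fewer calls. Of 23 measured T cell genes only 4 passed the filter, with Cd3e, Cd4 and Cd8a below it. Cd28, a costimulatory receptor that passed the filter only through Gas KO, read 3.10, 2.77 and 3.02 in WT and 4.47, 4.96 and 4.17 in Gas KO. Thy1, also a fibroblast gene, read 7.27, 7.13 and 7.64 in WT and 8.22, 8.08 and 8.02 in Gas KO. Ptprc, the pan-leukocyte antigen CD45, read 8.67, 8.42 and 8.24 in WT and 9.58, 9.01 and 9.36 in Gas KO. Macrophage genes rose in 4 of 18, at a median of 0.268: Cd163, a haemoglobin scavenger receptor, by 0.67, Lyz2, lysozyme, by 0.52, Mpeg1, a pore-forming protein, by 0.58, and Cd14, the endotoxin coreceptor, by 0.39. Of that list 1 gene rose without Gas KO replicate 1. Adgre1, which encodes the macrophage marker F4/80, did not pass the test (log2 change 0.23, adjusted p = 0.252). Cma1, a mast cell chymase that also passed only through Gas KO, read 3.12, 2.93 and 3.44 in WT and 4.97, 4.34 and 4.60 in Gas KO.

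Complement and coagulation genes rose in 9 of 23 tested members, none fell, and the median was 0.268. Besides the serpins above, Clu, clusterin, read 10.35, 10.28 and 10.34 in WT and 11.04, 10.82 and 11.01 in Gas KO (log2 change 0.63, SE 0.07, adjusted p = 2.60e-04). F3, tissue factor, read 10.16, 10.35 and 10.20 in WT and 10.82, 10.99 and 10.87 in Gas KO. Cd55, which protects cells from complement, read 9.16, 9.04 and 9.19 in WT and 9.74, 9.67 and 9.49 in Gas KO. Without WT replicate 2 or Gas KO replicate 1 the rises numbered 6. Of 21 tested chemokines and receptors, 5 rose and 2 fell. Rises numbered 2 without WT replicate 2 or any of the Gas KO replicates, and without WT replicate 3 there were 3 rises and 1 fall. Ccl27a, a chemokine of skin and mucosa, fell from 5.51 to 3.71 (log2 change -1.80, SE 0.16, adjusted p = 9.54e-05), and Cxcl10, an interferon-inducible chemokine, fell by 0.81, opposite to the antiviral genes. Cxcl12 rose by 0.52 and Ccr6, a receptor of B cells and follicle-associated cells, by 1.05.

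Mucosal defence proteins rose in 6 of 21 tested members. After Lpo and Slpi came Itln1, a lectin for microbial sugars, at 4.80, 4.19 and 4.12 in WT and 6.59, 5.49 and 5.88 in Gas KO. Reg4, a secreted lectin of crypt cells, read 12.57, 12.25 and 12.75 in WT and 13.31, 13.16 and 13.28 in Gas KO. Without Gas KO replicate 1 the count was 3, and without WT replicate 2 or Gas KO replicate 3 it was 4. Other members differed widely among the WT arrays and were not called. Retnlb, the goblet cell protein RELM beta, read 11.85, 10.63 and 5.66 in WT and 13.10, 12.20 and 12.42 in Gas KO (log2 change 3.20, adjusted p = 0.142). Reg3b, a bactericidal lectin named after its values were seen, read 5.997, 9.63 and 3.01 in WT and 3.10, 2.89 and 2.94 in Gas KO (log2 change -3.24, adjusted p = 0.172). Ang4, an antimicrobial angiogenin, read 13.50, 12.39 and 10.27 in WT and 13.74, 13.20 and 13.50 in Gas KO. In all 3 genes WT replicate 3 was the lowest WT array.

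Among abundant products of goblet cells, Muc2, Clca1 and Tff3 differed little. Retnlb and Ang4, also on the goblet cell list, differed by 3.20 and 1.43 and were not called, with WT replicate 3 the lowest WT array. Muc2, the gel-forming mucin, read 14.67, 14.58 and 14.33 in WT and 14.65, 14.70 and 14.66 in Gas KO and did not pass the test (log2 change 0.14, adjusted p = 0.275). Clca1 differed by 0.08 and Tff3, a trefoil peptide, by 0.11, neither of them called. Of 21 tested goblet cell genes 1 rose and 3 fell: Spink4 rose by 0.36, while Ern2, Rep15 (log2 change -0.40, adjusted p = 0.0274) and Atoh1, the factor of secretory fate (log2 change -0.24, adjusted p = 0.0351), fell. Only 1 member fell, and none rose, without WT replicate 2 or Gas KO replicate 1 or 3, and 2 fell without hGas replicate 3. Of 40 genes of mucin glycosylation 4 rose and 3 fell, with 3 and 1 without Gas KO replicate 1 and 2 and 2 without Gas KO replicate 2. Galnt6, which starts O-linked sugar chains, rose by 0.50, and Fut2, the fucosyltransferase of secretions, by 0.45. St6galnac2, of the same family as St6galnac1, fell slightly (log2 change -0.28, adjusted p = 0.0123), as did Fut4 (log2 change -0.32, adjusted p = 0.0152).

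Ribosome biogenesis covers the nucleolar machinery that transcribes, cuts and assembles ribosomal RNA, and growing cells depend on it. Of its 62 members, all of them tested, 22 fell (against 5.48% of all genes) and none rose. The median was -0.238, and 40 members were lower in every Gas KO array than in any WT array, as were 1687 of all 11273 genes tested. Gnl3, the nucleolar GTPase nucleostemin, read 9.16, 9.46 and 9.33 in WT and 8.83, 8.78 and 8.83 in Gas KO (log2 change -0.50, SE 0.08, adjusted p = 0.00228). Ddx21, a helicase of ribosomal RNA transcription, read 8.64, 8.67 and 8.68 in WT and 8.03, 8.03 and 8.36 in Gas KO. Nop58, a core protein of box C/D particles, read 8.76, 8.88 and 8.82 in WT and 8.52, 8.22 and 8.34 in Gas KO. Utp18, of the small-subunit processome, fell by 0.46 and Ppan, of the large-subunit pathway, by 0.38. The mean level of the list was 0.052 to 0.161 in WT and -0.14 to -0.132 in Gas KO. Which members pass depends on single arrays, since changes were small: 6 fell without WT replicate 2, 10 without Gas KO replicate 3, 11 without Gas KO replicate 1 or 2, and 13 without WT replicate 1. The median stayed between -0.287 and -0.21 in all of these fits.

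Other growth lists had a smaller share of members called. Among 33 MYC targets and enzymes of nucleotide synthesis 8 fell, 1 rose and the median was -0.205. Ctps, which makes CTP, fell by 0.49, Srm, spermidine synthase, by 0.52, and Ldha, lactate dehydrogenase, by 0.25. Prps1, which makes the ribose precursor of nucleotides, rose by 0.43. Falls numbered 4 in that list without Gas KO replicate 1, and 5 without WT replicate 2 or Gas KO replicate 2 or 3. Myc itself, named after its values were seen, read 7.002, 7.17 and 7.42 in WT and 6.85, 6.56 and 6.87 in Gas KO and missed the threshold (log2 change -0.43, adjusted p = 0.0573). Translation factors had 3 falls and 1 rise among 38, none called without WT replicate 1 or 2, and 1 fall without Gas KO replicate 2 or 3.

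S phase genes, which copy DNA, fell in 7 of 57 members and rose in 2, at a median of -0.163. Mcm2, of the replicative helicase, read 7.40, 7.55 and 7.69 in WT and 7.02, 6.82 and 6.91 in Gas KO (log2 change -0.63, SE 0.09, adjusted p = 0.00147). Pold1, the catalytic subunit of DNA polymerase delta, read 8.005, 7.91 and 8.05 in WT and 7.59, 7.41 and 7.60 in Gas KO. Uhrf1, which maintains DNA methylation, read 8.86, 9.09 and 9.24 in WT and 8.63, 8.51 and 8.64 in Gas KO. Mcm5 fell by 0.29. E2f2, a transcription factor of the cell cycle, rose instead, with 6.49, 6.81 and 6.61 in WT and 7.70, 7.43 and 8.06 in Gas KO (log2 change 1.09, SE 0.18, adjusted p = 0.0034). Falls numbered 3 without Gas KO replicate 3 and 11 without hGas replicate 2. Of mitosis genes 57 of 62 were above 0, against 51.8% of all genes tested, and the median was 0.209, but only Plk1, the kinase of mitotic entry, was called (log2 change 0.62, adjusted p = 0.0288). WT replicate 1 resembled Gas KO here, since the list's mean level was 0.178, -0.313 and -0.139 in WT and 0.182, 0.087 and 0.046 in Gas KO. Without WT replicate 1, 15 members rose, without hGas replicate 2 there were 2, and without WT replicate 2, WT replicate 3 or any Gas KO replicate there were 0 by limma. The proliferation marker Mki67 read 10.86, 10.43 and 10.64 in WT and 11.09, 10.92 and 10.96 in Gas KO and did not pass the test (log2 change 0.34, adjusted p = 0.0993).

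**Figure D4:**
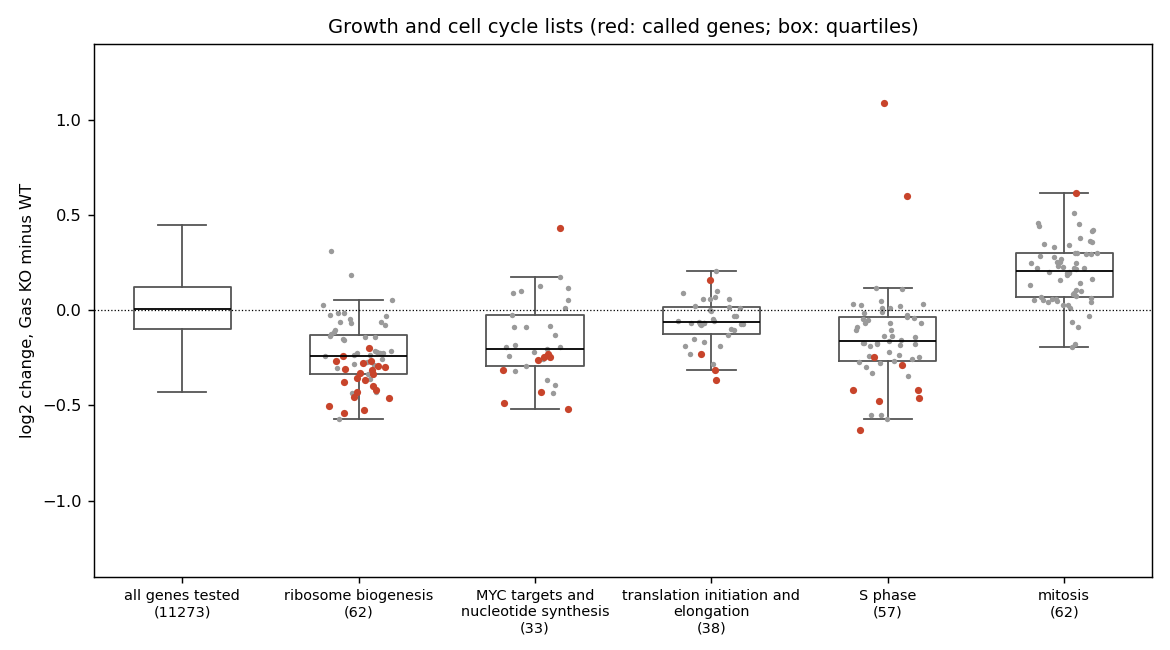
Log2 change, Gas KO minus WT, of every tested member of the growth and cell cycle lists, 1 point per gene, with red points for called genes, boxes at the quartiles and whiskers to the farthest value within 1.5 box lengths, beside a box for all 11273 genes whose outlying genes are not drawn. Ribosome biogenesis and S phase have medians of -0.238 and -0.163, and mitosis has a median of 0.209.

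The promoters of the growth lists differ in their motifs, and 1 stretch of each kind is shown for a gene of these results. The E-box bound by MYC, CACGTG, stood in 9.8% of all windows, in 19.4% of those of ribosome biogenesis and in 32.4% of those of MYC targets. The CHR element of mitotic genes, TTTGAA, stood in 12.0% of all windows and in 70.4% of the mitosis list. The E2F site, TTTNGCGC, stood in 2.3% and in 22.4% of the S phase list, and windows of all genes that rose or fell held these motifs about as often as all windows (among 733 windows of genes that rose and 645 of genes that fell, the E-box stood in 57 and 64, CHR in 100 and 71 and the E2F site in 13 and 15). Capitals mark the matches.
Utp18, E-box (chr11:93885751-93885816, minus strand): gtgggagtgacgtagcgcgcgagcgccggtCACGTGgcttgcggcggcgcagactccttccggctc
Plk1, CHR element (chr7:122159435-122159484, plus strand): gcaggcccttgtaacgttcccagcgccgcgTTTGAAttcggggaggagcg
Mcm5, E2F site (chr8:75109326-75109397, plus strand): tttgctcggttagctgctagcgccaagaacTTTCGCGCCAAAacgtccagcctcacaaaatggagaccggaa
All were searched on both strands, so each palindromic E-box counts once.

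Heat shock chaperones fell in 7 of 40 tested members, none rose, and the median was -0.088. Hspb7, a small heat shock protein of muscle, fell by 3.09 on the probe set used, but its other 2 probe sets gave -0.49 and -0.07. Chordc1, a cochaperone of HSP90, read 9.77, 9.99 and 9.78 in WT and 9.56, 9.30 and 9.44 in Gas KO, and the mitochondrial pair Hspd1 and Hspe1, which share a promoter, fell by 0.26 and 0.25. Without Gas KO replicate 3 only 2 members fell, 3 without WT replicate 2 or Gas KO replicate 1, and 4 without hGas replicate 1. The heat shock element stood in 0.5% of all windows and in 15.9% of those of the list; the 3 matches of Chordc1 are in capitals.
Chordc1 (chr9:18292233-18292315, plus strand): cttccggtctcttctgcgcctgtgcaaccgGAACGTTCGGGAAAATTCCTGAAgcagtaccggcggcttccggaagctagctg
In hypoxia and glycolysis 7 of 31 members fell and none rose, and 4 fell without Gas KO replicate 1. Hif1a, the oxygen-regulated transcription factor, read 11.90, 12.005 and 11.80 in WT and 11.36, 11.37 and 11.35 in Gas KO (log2 change -0.54, SE 0.06, adjusted p = 2.55e-04), and its 3 probe sets gave -1.07 to -0.54. Vegfa, an angiogenic growth factor, read 8.11, 8.10 and 8.03 in WT and 7.46, 7.40 and 7.67 in Gas KO. Bnip3, a mitophagy receptor, read 8.41, 8.62 and 8.43 in WT and 7.92, 7.97 and 7.96 in Gas KO. Hk2, a hexokinase, fell by 0.43.

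Mitochondrial genes moved by little. In complexes II to V of the respiratory chain 36 of 39 members lay below 0, but 5 fell and the median was -0.068, and 3 fell without WT replicate 1 or 2 or Gas KO replicate 1 or 2. Cox7a1, a subunit of cytochrome oxidase, read 10.16, 10.10 and 10.18 in WT and 9.71, 9.62 and 9.77 in Gas KO. Atp5e, of ATP synthase, fell by 0.18. In complex I, Ndufs5 stood out at 10.41, 10.46 and 10.38 in WT and 9.58, 9.61 and 9.53 in Gas KO (log2 change -0.84, SE 0.04, adjusted p = 2.08e-06), against a median of -0.052 over 33 members. Rps6 did the same among 42 cytosolic ribosomal proteins, at 9.26, 9.25 and 9.28 in WT and 7.73, 7.87 and 7.81 in Gas KO, where the median was -0.049 and 2 members fell, or 1 without Gas KO replicate 2 or 3. Rps6 belongs to a family with many pseudogenes, whose transcripts its probes may also detect. Mrpl3 fell by 0.50 among 73 mitochondrial ribosomal proteins, of which 3 fell and 1 rose.

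The colon absorbs sodium through the channel ENaC and chloride through exchangers, and secretes chloride through CFTR. Of 39 tested genes of this transport 8 fell and 2 rose, at a median of -0.108. The ENaC subunit gene Scnn1g read 6.68, 7.12 and 6.46 in WT and 4.995, 5.33 and 5.26 in Gas KO (log2 change -1.56, SE 0.18, adjusted p = 4.37e-04). Scnn1b read 5.51, 5.83 and 5.40 in WT and 4.73, 4.74 and 5.17 in Gas KO. Fxyd4, a regulator of the sodium pump, read 10.55, 10.25 and 10.77 in WT and 9.02, 8.51 and 9.12 in Gas KO. Cftr itself read 10.46, 10.17 and 10.26 in WT and 9.48, 9.79 and 9.52 in Gas KO (log2 change -0.70, SE 0.09, adjusted p = 0.00126). Car4, a membrane carbonic anhydrase, fell by 0.31 from a level above 13. Guca2b, which encodes uroguanylin, an activator of chloride secretion, rose, with 7.10, 7.46 and 7.02 in WT and 8.46, 8.54 and 8.43 in Gas KO (log2 change 1.28, SE 0.10, adjusted p = 4.61e-05). Falls numbered 4 without Gas KO replicate 1 and 5 without Gas KO replicate 2. Scnn1g, Scnn1b, Fxyd4 and Car4 are also markers of the distal colon, a list in which 4 of 15 tested members fell and none rose. The mean level of that list was 0.136 to 0.244 in WT and -0.072 to 0.053 in Gas KO, while its homeobox members Hoxd13 and Hoxb13 changed by 0.03 and 0.01. Among 16 genes of the proximal colon 3 rose and 1 fell, and the mean level was -1.103 to -0.245 in WT, lowest in WT replicate 3, and -0.217 to -0.091 in Gas KO. Those calls rested on single arrays, with 2 rises without WT replicate 1 or 2, 1 rise without Gas KO replicate 1, 1 of each without Gas KO replicate 2 and 1 fall without Gas KO replicate 3. Which stretch of colon each sample came from is not in the labels, and its part in these results was not tested.

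Of 25 tested genes of absorptive colonocytes 3 fell and 1 rose. Slc26a3, the chloride exchanger, differed by -0.11 and Krt20, the keratin of mature colonocytes, by -0.03, without passing the test. Of 204 tested solute carriers 20 fell and 6 rose, at a median of -0.02, and 12 fell without Gas KO replicate 1 or 3. The share of solute carriers called, 12.7%, was close to the 12.1% of all genes tested. Slc34a2, a phosphate transporter named after its values were seen, read 7.77, 7.93 and 8.06 in WT and 6.68, 6.93 and 6.73 in Gas KO. Slc25a34, a mitochondrial carrier, read 7.40, 7.14 and 7.40 in WT and 6.34, 6.43 and 6.28 in Gas KO. Slc38a6, an amino acid transporter, rose by 0.78. Stem cell genes had 2 falls and 1 rise among 18, and 1 fall alone without WT replicate 1 or 3 or any Gas KO replicate. Lgr5, the receptor that marks crypt stem cells, read 6.98, 6.02 and 6.85 in WT and 5.60, 5.78 and 5.63 in Gas KO (log2 change -0.94, adjusted p = 0.0321), with WT replicate 2 close to the Gas KO arrays. The enteroendocrine marker Chga, chromogranin A, differed by 0.09 without passing the test.

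Steroid metabolism split, with 3 of 21 members up and 3 down. Beside Hsd17b13, the glucocorticoid-activating Hsd11b1 rose (5.81, 5.77 and 6.06 in WT and 6.73, 6.50 and 6.60 in Gas KO), as did Hsd17b11, by 0.25. Esterases and lipases also had 3 each way among 30, with Gdpd3 up and Galc, Aadac and Ces2a down, and with the lysosomal lipase Lipa up by 0.33. Cholesterol synthesis had 0 called genes among 21 by limma and a median of -0.059. In xenobiotic metabolism 5 of 35 fell and 2 rose, and 3 fell without WT replicate 1, WT replicate 2 or Gas KO replicate 1. Abcb1a, the efflux pump P-glycoprotein, read 12.45, 12.52 and 12.48 in WT and 12.02, 11.83 and 11.82 in Gas KO (log2 change -0.59, SE 0.08, adjusted p = 0.00169). Gsto1, a glutathione transferase, read 12.58, 12.54 and 12.49 in WT and 11.99, 12.03 and 11.96 in Gas KO, whereas Ahr, the aryl hydrocarbon receptor, rose by 0.58. The metallothioneins Mt1 and Mt2, which bind zinc, fell by 0.55 and 0.64, while Me1, malic enzyme, rose by 1.20. Cbs, which makes cystathionine from homocysteine, read 7.43, 7.35 and 7.50 in WT and 8.76, 8.71 and 8.63 in Gas KO (log2 change 1.27, SE 0.07, adjusted p = 2.08e-06). Asns, asparagine synthetase, rose by 0.78. Cd36, a fatty acid transporter, rose by 0.93 among 33 genes of fatty acid oxidation, of which 2 fell and 1 rose.

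Growth factor signalling, which drives division of epithelial cells, had 7 rises and no fall among 38 members at a median of 0.037. Fgf7, keratinocyte growth factor from fibroblasts, read 7.52, 7.27 and 7.47 in WT and 8.46, 8.11 and 8.10 in Gas KO (log2 change 0.81, SE 0.13, adjusted p = 0.00394). Igfbp4, which binds insulin-like growth factors, read 11.43, 11.36 and 11.44 in WT and 12.004, 12.06 and 11.97 in Gas KO, and its 6 probe sets gave 0.51 to 0.69. Igf1 rose by 0.31 and Erbb3, a receptor of the EGF receptor family, by 0.24. Rises numbered 3 without WT replicate 1 or Gas KO replicate 1 or 2. In the BMP, TGF-beta and hedgehog list 5 of 37 rose and none fell, with Bmp5 at 8.71, 8.40 and 8.86 in WT and 9.46, 9.28 and 9.27 in Gas KO, Ltbp1 up by 0.45 and Ptch1, the hedgehog receptor, by 0.62. Sfrp2, a secreted Wnt antagonist, read 5.98, 5.90 and 6.19 in WT and 7.15, 7.09 and 7.17 in Gas KO (log2 change 1.11, SE 0.15, adjusted p = 0.0011). Of STAT3 and cytokine genes 5 of 27 rose and 1 fell, with 2 rises without WT replicate 1 or Gas KO replicate 3. Socs3, the feedback inhibitor, rose by 0.67 and Pim1, a kinase, by 0.93, while Il22ra1, the receptor for IL-22 on epithelium, fell (log2 change -0.57, adjusted p = 0.00515) and Il22ra2, its soluble antagonist, rose, with 6.27, 6.25 and 6.27 in WT and 7.26, 7.62 and 7.13 in Gas KO. Tnfaip3, the NF-kB inhibitor A20, read 9.26, 9.32 and 9.08 in WT and 8.59, 8.64 and 8.62 in Gas KO (log2 change -0.60, SE 0.07, adjusted p = 3.31e-04). Among NF-kB targets 2 rose and 2 fell of 22.

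Of 29 tested fibroblast genes 8 rose and none fell at a median of 0.132, and 5 rose without WT replicate 1 or WT replicate 2. Fbln2, a matrix fibulin, read 7.08, 7.09 and 7.30 in WT and 7.92, 7.88 and 7.97 in Gas KO. Pdgfra, the growth factor receptor of crypt-associated fibroblasts, read 10.56, 10.72 and 10.59 in WT and 10.98, 11.02 and 11.03 in Gas KO. Collagens went both ways: Col12a1 read 8.02, 7.93 and 8.34 in WT and 6.56, 6.66 and 6.60 in Gas KO (log2 change -1.49, SE 0.11, adjusted p = 1.85e-05) and Col8a1 fell by 1.26, while Col1a1 did not pass the test (log2 change -0.34, adjusted p = 0.111). Smooth muscle genes had 2 falls among 18, Hspb7 and the calcium store protein Casq2 (log2 change -1.43, adjusted p = 1.53e-04), and Acta2, smooth muscle actin, differed by -0.03. None of 21 endothelial genes was called, and Pecam1 differed by 0.06. The adipocyte hormone gene Adipoq read 7.25, 6.90 and 4.18 in WT and 7.60, 8.95 and 7.91 in Gas KO, with WT replicate 3 lowest, and was not called. All 9 tested adipocyte genes were above 0, at a median of 0.778, and 1 rose, Scd1, by 0.85. The mean level of that list was 0.016, -0.062 and -0.873 in WT and 0.221, 0.807 and 0.288 in Gas KO. None of it was called by limma without WT replicate 1 or 2, and 3 members rose without hGas replicate 2. The part of fat tissue in the results was not tested.

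Among 49 genes of the brush border and cytoskeleton 10 rose and 3 fell, or 7 and 1 without Gas KO replicate 1. Beside Cap1 and Krt12, Tmsb4x, which sequesters actin monomers, read 13.41, 13.42 and 13.41 in WT and 13.68, 13.66 and 13.62 in Gas KO (log2 change 0.24, SE 0.03, adjusted p = 0.0013). Capg, which caps actin filaments, rose by 0.79, and Fscn1, which bundles them, by 0.59. Epcam, the epithelial adhesion protein, rose by 0.35 on every Gas KO array, at 13.63, 13.65 and 13.73 in WT and 14.01, 14.03 and 14.01 in Gas KO.

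The called genes were unevenly spread over the chromosomes. By chromosome, 19.8% of the tested genes of chromosome 17 and 19.6% of those of chromosome 4 were called, against 5.97% on chromosome 13 and 6.57% on chromosome 2. In windows of 50 neighbouring tested genes the median number changed at least 2-fold was 1, and 99 of 215 windows had none, but 6 windows held 5 or more. The fullest window, on chromosome 6, had 7, all higher. Of these, 6 were kappa light chain genes, among them Igkv6-20 (log2 change 2.95, adjusted p = 1.59e-06), which passed the filter only through Gas KO. The other was Herc6, an interferon-inducible ligase named after its values were seen (log2 change 1.34, adjusted p = 0.0139). A window on chromosome 4 held 6, of which Fv1, a retroviral restriction gene, rose by 2.28 and Rbp7, a retinol-binding protein, by 1.61, while Zfp991 and Vamp3 fell. The WT mean of Fv1 was near background, at 2.71, so it may also have passed the filter only through Gas KO. Vamp3, a vesicle fusion protein, read 11.89, 12.05 and 11.89 in WT and 10.81, 10.84 and 10.83 in Gas KO, and its 5 probe sets gave -1.11 to -0.10. On chromosome 7, the 6 such genes of a window included Apoc2 and Igsf23, which rose, and Ceacam20 and Nlrp9b, which fell. Of 220 tested zinc finger genes 16 fell and 6 rose, at a median of -0.015, and 12 fell and 2 rose without WT replicate 2.

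**Figure D5:**
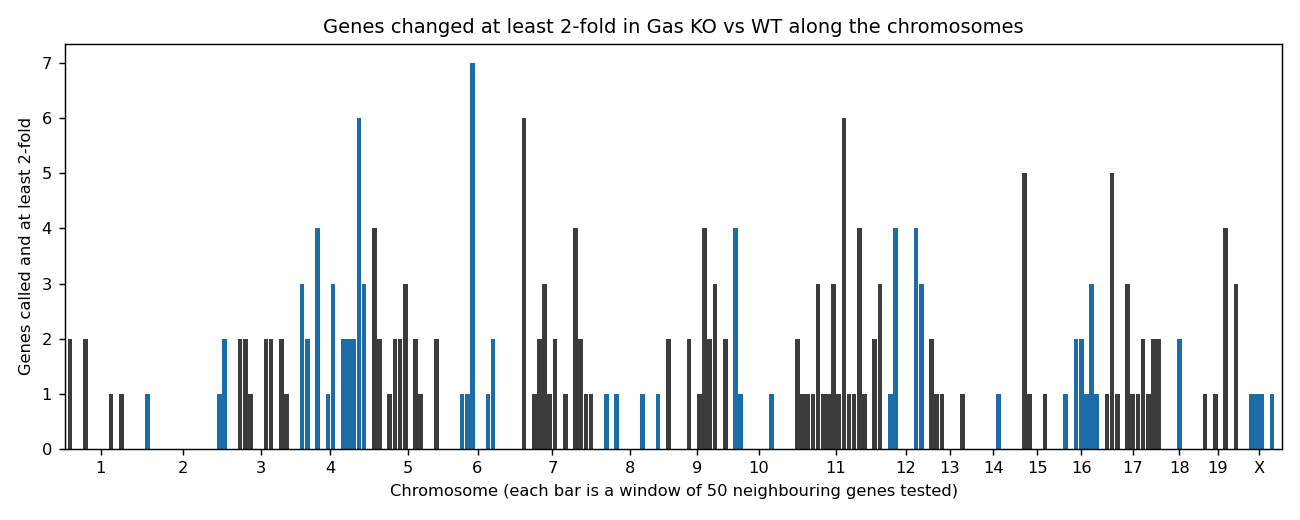
Number of genes called and changed at least 2-fold in each window of 50 neighbouring tested genes, in chromosome order, where neighbours come from the RefSeq gene order and the colour alternates between chromosomes. Most windows hold 0 or 1 and the highest, on chromosome 6, holds 7.

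The 25 tested genes on each side of Gast on chromosome 11 held 11 called genes of 50, of which 4 changed at least 2-fold. Over chromosome 11 the shares were 14.6% and 3.39%, and over all genes tested 12.1% and 2.16%. Of the 4, 3 rose, namely Krt12, Ikzf3, a lymphoid transcription factor (2.98, 2.91 and 2.19 in WT and 5.49, 4.44 and 4.87 in Gas KO), and Dhx58, all from levels at or below 5.24 in every WT array. Tns4 fell. Krt12 and Ikzf3 lay below log2 4 on every WT and hGas array, so they passed the filter only through Gas KO. That choice favours a higher level there, and the counts beside Gast include these genes. Whether the region differs from the rest of chromosome 11 without them was not tested. A list of genes reported to vary between mouse strains had 4 rises and 3 falls among 16 tested members, with Glo1, Alad, Cyfip2 (log2 change 1.33) and Trim30d (0.99) up and Casp4, an inflammatory caspase, down (8.01, 8.31 and 7.60 in WT and 7.07, 6.35 and 7.04 in Gas KO). The labels give C57BL/6 for every group and neither the substrain nor the number of backcrosses, and the part of passenger alleles in these results was not tested.

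The hGas arrays, which share the WT arrays as their control, are given as levels only (mean ± SD, n = 3). Lpo stood at 6.92 ± 0.08 in hGas, Cap1 at 6.54 ± 0.02, St6galnac1 at 2.88 ± 0.06 and Gdpd3 at 4.84 ± 0.08. Zan stood at 7.37 ± 0.11, Aadac at 9.46 ± 0.24 and Ccn3 at 11.38 ± 0.23. Among the immune genes, Ifit1 was at 7.04 ± 0.15, Cd74 at 10.84 ± 0.03, Jchain at 12.45 ± 0.31 and Cd79a at 4.06 ± 0.59. Of the transport genes, Scnn1g was at 5.08 ± 0.22 and Fxyd4 at 9.40 ± 0.11. Gnl3 stood at 9.27 ± 0.07 and Mcm2 at 7.27 ± 0.01.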

How the data were processed

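Colonic mucosa RNA of 9 samples, 3 per group, was hybridised to 1 array each. The deposited values are log2 intensities that the authors made with GCRMA, per the submitters' processing notes, and its version is not given in the sources used here. Of 45101 probe sets, 34945 were annotated to 1 gene, and the probe set with the highest mean over the 9 arrays stood for each of 18193 genes. The 11273 genes with at least 3 arrays at log2 4 or above were tested with limma 3.58.1 in R 4.3.3, as 1 mean per group over all 9 arrays with a variance trend, and p-values were adjusted by Benjamini-Hochberg over all of them. Calls were made below an adjusted p of 0.05. The limma fit was tested on simulated data. Array number, 3 per group, limits the precision. Whether equal replicate numbers pair the arrays is not known, and the numbers entered no block in the main fit. Alternatives were filters, normalisation, probe set choice, variance prior, array weights, 6 arrays alone, a stricter threshold and leaving out each array. A further alternative took the replicate number as a block.

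The members and the 82 gene lists were chosen with earlier results of these data known. Named were the 30 largest rises and 30 largest falls among called genes without overlap, the 15 largest each way with both means at log2 8 or above, up to 5 called members per list with the smallest p, and genes of the 3 fullest windows. Predicted genes were passed over, and defining cell markers were printed also where not called. Outside this rule, Furin, Hsd17b11, Ifit3, Oas1a, Isg20, Igha, Rbp7, Slc34a2 and Herc6, and Myc, Reg3b, Mki67 and Col1a1, were named after their values were seen, as were genes named only for how they passed the filter. Promoter windows came from RefSeq on GRCm38.p6.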

Additional observations from a re-analysis of the deposited data

Results flagged for a closer look

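Probe sets that the annotation ties to no gene or to several genes stood outside every count above. Of 3314 such probe sets that passed the same filter, 428 were called in Gas KO against WT, and 138 of them changed at least 2-fold, 60 upward and 78 downward. They were singled out as a signal in data that the comparison of genes did not use, and no gene name is given to them here.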

How the results depend on the processing

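The count of 1366 called genes stayed within 1.5 times under every alternative run except the threshold of 0.01 and the fit without Gas KO replicate 1. At adjusted p under 0.01, limma called 674 genes, 367 higher and 307 lower in Gas KO. Leaving out 1 array at a time gave 888 to 1375 called genes, 468 to 755 that rose, 418 to 620 that fell and 226 to 267 changed at least 2-fold. Without Gas KO replicate 1 there were 888 called, 468 of them higher. With the replicate number as a block the fit called 1557 genes, 1311 of them shared, with 866 higher, 691 lower and 252 at least 2-fold. Deviations of WT and Gas KO arrays with the same number correlated at 0.15, -0.006 and 0.145. Of 6 arrays, 4 correlated best with their own number. These values do not settle whether equal numbers pair the arrays, and the main fit did not take the numbers as pairs. Centring arrays on their medians moved the share of called genes that rose from 54.8% to 48.6%. Zfp945 changed direction with probe sets for 1 transcript, where it rose by 1.46. Values near background have only 3 arrays a group behind them, and their folds depend on the background correction.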
